A study of Populus x canadensis with 3 samples.

Results

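The sequences described here are 7 groups of listed root miRNAs whose annotation is in doubt: miR6300, miR8175, miR6478, miR3630, miR2916, miR6173 and miR5368. Except for miR3630, for which no such likeness is given here, they are known to resemble pieces of tRNA or rRNA. They were taken by the number after miR or MIR in the name, with each distinct sequence counted once. This gave 57 of the 472 distinct sequences of the table, from 79 of its 673 entries. The numbers were chosen by their doubted annotation and with the normalized values of these 3 libraries in view, so the differences between libraries below are descriptions and carry no test.

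The roots came from a hybrid poplar, Populus × euramericana "Neva", raised from branch cuttings in water culture for 60 days and then exposed for 3 days to the phenolic acid pHBA (para-hydroxybenzoic acid). The 3 libraries are PHBA 0 (a labelled dose of 0 mML-1, so untreated), PHBA 2 (2 mML-1) and PHBA 4 (4 mML-1), where the unit is presumably millimolar. RNA samples of a treatment were pooled in equal amounts and sequenced as 1 small RNA library, which leaves no replicate at any dose. The reads on listed sequences numbered 1434442 (PHBA 0), 542913 (PHBA 2) and 380800 (PHBA 4). Values are normalized reads, the authors' read count times 1 constant per library, and a range in brackets after a fold or share is its 95% interval for counting error only. A read count is relative to the other RNA in the library, so more of a fragment and less of other small RNA cannot be told apart, nor can fewer cells of a type and less RNA per cell. The root tissue could not be checked against marker genes, because the table holds only small RNAs.

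A plant miRNA is cut by a Dicer-like enzyme from a hairpin precursor, which leaves a short RNA with a precise start and a partner strand on the other arm of the hairpin. Fragments of tRNA and rRNA fall into the same size range when small RNA is selected, and they often come as nested pieces with a common end. A mature tRNA ends in the letters CCA, which are added after transcription. Near its start lies the A box, a promoter element inside the gene that also shapes the D arm. As background known outside these data, the registered miR6300 of soybean (gma) reads as the start of the aspartate tRNA, and miR8175 of Arabidopsis (ath) as its end. miR2916 resembles small-subunit rRNA, miR6173 of rubber tree (hbr) small-subunit rRNA of the plastid type, miR5368 rRNA, and miR6478 the D arm region of a tRNA. No tRNA, rRNA or miRNA reference was used here, so none of these matches was tested.

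The miR6300 sequences are shown because they form a ladder that starts at the same base and grows at its 3′ end. Capitals mark what is added after the registered sequence of 18 nt.
gma-miR6300: gtcgttgtagtatagtgg
gma-miR6300_R+2: gtcgttgtagtatagtggTA
gma-miR6300_R+3: gtcgttgtagtatagtggTGA
gma-miR6300_R+4: gtcgttgtagtatagtggTGAG
gma-miR6300_R+5_1: gtcgttgtagtatagtggTAAGT
gma-miR6300_R+5_2: gtcgttgtagtatagtggTGAGT
gma-miR6300_R+6_1: gtcgttgtagtatagtggTGAGTA
gma-miR6300_R+7_1: gtcgttgtagtatagtggTAAGTAT
gma-miR6300_R+7_2: gtcgttgtagtatagtggTGAGTAT
The ladder has either A or G at base 20, counted from the first base. In the names, R+5 means 5 bases added at the 3′ end, L-2 means 2 bases missing at the 5′ end, and ss marks substituted bases.

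The miR8175 sequences are shown because they have the mirror form, a fixed 3′ end with a start that moves. Capitals mark the CCA end.
ath-miR8175: gatccccggcaacggcgCCA
ath-miR8175_L-1: atccccggcaacggcgCCA
ath-miR8175_L-2: tccccggcaacggcgCCA
ath-miR8175_L-2_1ss12AG: tccccggcagcggcgCCA

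Other members are shown for what they share with each other. Capitals mark the bases that 2 sequences have in common, first in pieces that reach beyond the miR6300 ladder (compared with gma-miR6300_R+7_1), then in pairs of miR6173 and miR3630 named as opposite arms of a hairpin.
gma-MIR6300-p3: TAGTGGTAAGTATtcccgcc
ath-MIR8175-p3_2ss18TC22AC: TATAGTGGTAAGTATtcccgcct
hbr-MIR6173-p5: ttagATACCCCAGTAGTCCTA
hbr-MIR6173-p3_2ss18AG19GC: ATACCCCAGTAGTCCTAgcc
vvi-MIR3630-p5_1ss1TA: aTGGGAATCTCTCTGATGCAC
vvi-miR3630-3p_L-2: TGGGAATCTCTCTGATGCAC

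As a set the doubted sequences were higher at both doses than in untreated roots. Their share of listed reads was 0.826% in PHBA 0, with a Wilson interval of 0.811 to 0.841. It was 2.46% (2.41 to 2.50) in PHBA 2 and 5.40% (5.33 to 5.47) in PHBA 4. Their summed value was 2.92-fold higher in PHBA 2 than in PHBA 0 (2.85 to 2.99), 5.22-fold higher in PHBA 4 than in PHBA 0 (5.11 to 5.34) and 1.79-fold higher in PHBA 4 than in PHBA 2 (1.75 to 1.83). The increase at both doses was seen in every number except miR8175, whose summed ratio of PHBA 2 over PHBA 0 was 0.958 (0.849 to 1.08). The main contribution came from miR6300, with 69.1% (PHBA 0), 68.7% (PHBA 2) and 63.7% (PHBA 4) of the set's reads. Several miR6300 sequences repeat the same values, and with each value used once its sum was 2907 in PHBA 0, 8641 in PHBA 2 and 16653 in PHBA 4.

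**Figure D1:**
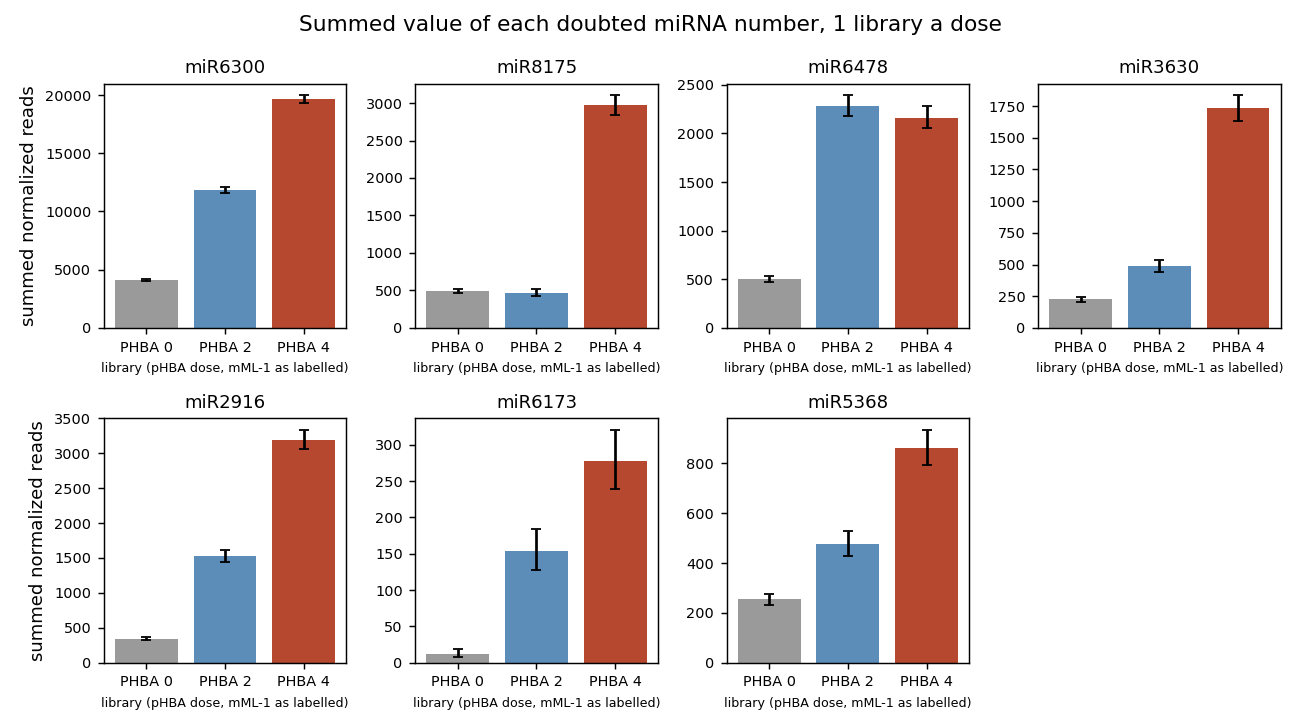
Summed normalized reads of each doubted miRNA number (vertical axis, linear, each panel with its own range) in the libraries PHBA 0, PHBA 2 and PHBA 4 (horizontal axis), with 1 library a dose. Bars are sums over distinct sequences, repeated values included, and error bars are exact Poisson 95% intervals of the reads. miR6300 stands at 4081, 11845 and 19647 over the doses, while miR8175 stands at 489 and 469 before it reaches 2969 in PHBA 4.

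The members ranged from 18 to 25 nt. There were 18 sequences under 20 nt and 39 of 20 nt or more, and 9 of 57 (15.8%) had 21 nt, the usual length of a plant miRNA, whereas 215 of the 415 other sequences (51.8%) did. Only gma-miR6300 and ath-miR8175 match a registered mature miRNA without an end change or a substitution in their name. Another 25 are named as hairpin strands that are not registered, 27 carry an end change and 31 carry 1 or more substitutions. The names point to soybean for 28, Arabidopsis for 16, rubber tree for 6, grapevine (vvi) for 4, Populus euphratica (peu) for 2 and Populus trichocarpa (ptc) for 1. Counts of all 57 members were multiples of 0.5 reads in each library (within 0.0001), and the lowest count above 0 was 2.50 reads. A listed 0 may therefore stand for a small number of reads, and no ratio is printed against it. Counts and ranks of log2 differences do include such members, through a pseudocount of 1.

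miR6300 had 23 sequences, and 13 of them begin with the registered 18 nt. Those 13 carry 8 distinct sets of values, 1 for each length from 18 to 25 nt. The 3 forms of 19 nt, gma-miR6300_R+1_1, gma-miR6300_R+1_2 and gma-miR6300_R+1_3, end in a different base and have identical values (4.74 in PHBA 0, 10.99 in PHBA 2, 41.2 in PHBA 4). Each pair of forms at 23, 24 and 25 nt has identical values too. At these lengths the values follow the number of added bases and not the bases themselves, so the A and G forms at 23 and at 25 nt cannot be told apart. Each length is described once.

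The 18 nt form stood at 785 (PHBA 0), 1762 (PHBA 2) and 11407 (PHBA 4). The 20 nt form, gma-miR6300_R+2, stood at 199, 601 and 729 over the same doses, and the 21 nt form, gma-miR6300_R+3, at 150, 481 and 520 (520.5 before rounding). These lengths were highest in PHBA 4, but by far only for the 18 nt form. Relative to PHBA 2 the 20 nt form was 1.21-fold higher in PHBA 4 (1.07 to 1.38). The 21 nt form had a ratio of 1.08 with an interval of 0.932 to 1.26 that holds 1.
The 22 nt form, gma-miR6300_R+4, stood at 234 in PHBA 0, 979 in PHBA 2 and 290 in PHBA 4 (289.5 before rounding). The 24 nt forms, gma-miR6300_R+6_1 and gma-miR6300_R+6_2, stood at 457, 1462 and 747. Both lengths were highest at the lower dose. The 23 nt forms, gma-miR6300_R+5_1 and gma-miR6300_R+5_2, stood at 474, 996 and 1240 (1240.5 before rounding), and the 25 nt forms, gma-miR6300_R+7_1 and gma-miR6300_R+7_2, at 234, 724 and 924, so lengths that peaked at different doses alternate along the ladder.

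At the lower dose each length of the ladder had a higher value than in PHBA 0. Summed over the 8 lengths the ladder was 2.77-fold higher in PHBA 2 than in PHBA 0 (2.66 to 2.88). The 22 nt form differed most, at 4.18-fold (3.72 to 4.70), and the 23 nt forms least, at 2.10-fold (1.91 to 2.31). The 19 nt forms, on 8.5 and 9.5 reads, gave 2.32-fold with an interval of 0.839 to 6.39 that holds 1.

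Among the listed forms, the ladder was shorter at the higher dose. The 18 nt form took 31.0% (29.7 to 32.2) of its reads in PHBA 0, 25.1% (23.98 to 26.3) in PHBA 2 and 71.7% (70.9 to 72.6) in PHBA 4. Forms of 22 to 25 nt took 55.1%, 59.3% and 20.1% over the same doses. The mean length weighted by reads was 21.4 nt in PHBA 0, 21.6 nt in PHBA 2 and 19.3 nt in PHBA 4. Relative to PHBA 2, the 18 nt form in PHBA 4 was 6.47-fold higher (6.11 to 6.86), while the 22 nt form was 3.38-fold lower (2.88 to 3.98) and the 24 nt forms 1.96-fold lower (1.76 to 2.18). Shares within the ladder do not depend on how the libraries are scaled. All sequences of the table have 18 to 25 nt, so any form under 18 nt is left out of these shares and mean lengths.

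**Figure D2:**
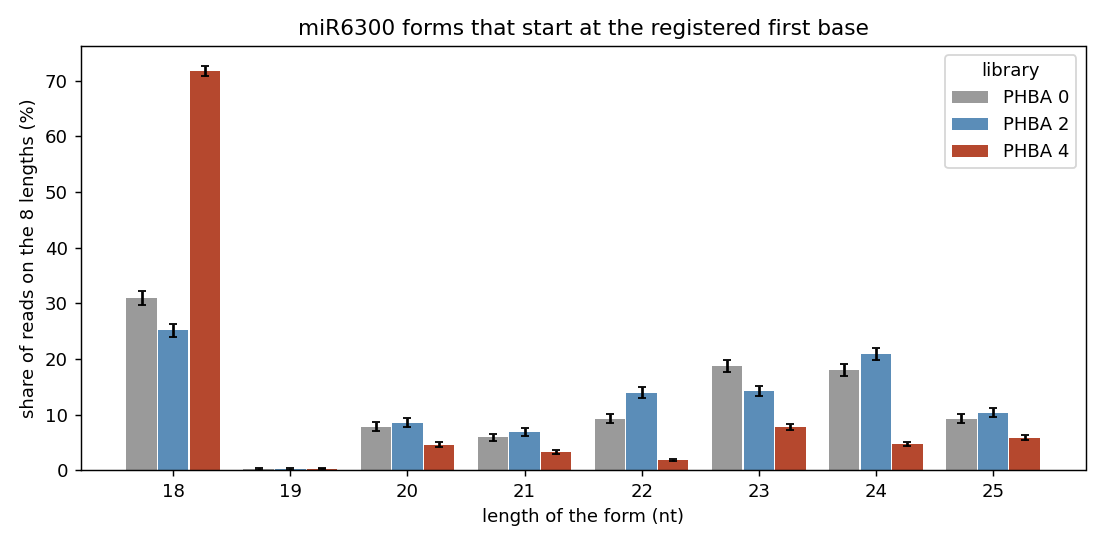
Share of reads (%, vertical axis) at each length from 18 to 25 nt (horizontal axis) among miR6300 forms that start at the registered first base, in PHBA 0, PHBA 2 and PHBA 4. Bars with the same values in several sequences are drawn once, and error bars are Wilson 95% intervals. The 18 nt bar is 31.0% in PHBA 0, 25.1% in PHBA 2 and 71.7% in PHBA 4.

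Of the other 10 miR6300 sequences, 4 start inside the same stretch. With 1 sequence listed under miR8175, ath-MIR8175-p3_2ss18TC22AC, they extend it to 33 bases. Counting from the first base of gma-miR6300, gma-MIR6300-p5_1ss17AG spans bases 4 to 26, and gma-MIR6300-p3 spans bases 13 to 32. These 5 inner sequences, unlike the 18 nt form, were highest in sum at the lower dose. They stood at 376 in PHBA 0, 1664 in PHBA 2 and 692 in PHBA 4, 4.43-fold higher in PHBA 2 than in PHBA 0 (4.04 to 4.85). Most of the PHBA 2 sum was gma-MIR6300-p5_1ss17AG. Not all of the 5 peaked there: gma-MIR6300-p3_1ss9AG, at 41.6, 106 and 125 over the doses, was highest in PHBA 4. So was ath-MIR8175-p3_2ss18TC22AC, at 26.9, 56.9 and 87.8. Sequences placed at base 1 stood at 2532, 7006 and 15857.
gma-MIR6300-p5_1ss17AG alone stood at 201 (PHBA 0), 1082 (PHBA 2) and 172 (PHBA 4), the highest by far at the lower dose. It was 5.38-fold higher in PHBA 2 than in PHBA 0 (4.77 to 6.07), whereas in PHBA 4 it was close to PHBA 0, at a ratio of 0.854 (0.690 to 1.06) that becomes 1.07 when the libraries are scaled to equal totals. gma-MIR6300-p3 stood at 94.2, 383 and 279. Although named as 5′ and 3′ arm, these strands have overlapping places on the stretch. The remaining 6 miR6300 sequences, neither in the ladder nor placed inside the stretch, were scarce, with means of at most 19.6 normalized reads.
Among the inner sequences those with G at base 20 stood at 255 in PHBA 0, 1224 in PHBA 2 and 326 in PHBA 4 (3 sequences), and those with A at 121, 440 and 367 (2 sequences). In PHBA 4 relative to PHBA 2 the G sequences were 3.76-fold lower (3.24 to 4.38), while the A sequences were 1.20-fold lower (1.02 to 1.42), and scaling to equal totals turned this into a ratio of 1.02. The G difference rests on gma-MIR6300-p5_1ss17AG, with 1082 of the 1224 in PHBA 2. The other G sequences had ratios of PHBA 4 over PHBA 2 whose intervals hold 1. These were 1.18 (0.866 to 1.63) for gma-MIR6300-p3_1ss9AG and 0.787 (0.415 to 1.46) for gma-MIR6300-p3_1ss10AG. The base at position 20 is thus not set apart from the place of the sequence.

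miR8175 had 16 sequences, of which 8 end in CCA. Most of its reads fell on the 18 nt ath-miR8175_L-2, which stood at 386 (PHBA 0), 296 (PHBA 2) and 2576 (PHBA 4). It was 6.68-fold higher in PHBA 4 than in PHBA 0 (6.13 to 7.28) and 8.70-fold higher than in PHBA 2 (7.58 to 10), but 1.30-fold lower in PHBA 2 than in PHBA 0 (1.12 to 1.52). The registered ath-miR8175 was scarcer at 17.4, 18.1 and 86.2, and ath-miR8175_L-1 had 19.4, 21.3 and 115 (115.5 before rounding). Of the reads on sequences in CCA, ath-miR8175_L-2 held 83.7% (81.2 to 85.9) in PHBA 0, 80.2% (75.1 to 84.3) in PHBA 2 and 89.9% (88.5 to 91.2) in PHBA 4. The PHBA 2 values rest on few reads, 286 over the 8 sequences (285.5 before rounding).
The remaining sequences of miR8175 were scarce, and 10 of its 16 had a mean below 10 normalized reads. ath-miR8175_L+2_1ss4AT stood at 23.9 in PHBA 0 and 27.2 in PHBA 2 and was listed at 0 in PHBA 4. ath-MIR8175-p3_1 and ath-MIR8175-p3_2, which differ by 1 base at the 5′ end, share 6.47 normalized reads in PHBA 2 and 0 elsewhere, values that 4 sequences of other numbers also have. One sequence is listed under both arms, as ath-MIR8175-p3_1ss9CT and ath-MIR8175-p5_1ss9CT, at 0, 12.3 and 4.50.

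The start of miR6300 and the end of miR8175 can pair. The first 7 bases of gma-miR6300 (gtcgttg) face the 7 bases of ath-miR8175 that precede its last 4 (caacggc), with 6 Watson-Crick pairs, 1 G-T pair (G-U in RNA) and 0 mismatches. Over the whole table, each of the 472 sequences was set against each of the 18 that end in CCA by the same rule, which gave 125 pairs of sequences with a full stem. Of these, 120 joined miR6300 with miR8175 and 5 were other pairs. These pairs are not independent, since most miR6300 sequences share their first bases and the miR8175 sequences in CCA nearly share their last. The rule was also taken from gma-miR6300 and ath-miR8175 themselves. The 120 pairs thus largely repeat 1 match and are no test of the pairing. The pairable ends did not keep a constant ratio across the libraries. For each miR8175 read in CCA there were 5.50 reads of the miR6300 ladder in PHBA 0, 19.01 in PHBA 2 and 5.55 in PHBA 4. Summed over the sequences in CCA, miR8175 was 1.25-fold lower in PHBA 2 than in PHBA 0 (1.09 to 1.43), where the miR6300 ladder was 2.77-fold higher. In PHBA 4 relative to PHBA 0 the miR8175 sum in CCA was 6.22-fold higher (5.74 to 6.73) and the ladder was 6.27-fold higher (6.06 to 6.48).

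miR6478 had a single sequence of 23 nt, shown because it holds an A box match (in capitals).
ptc-miR6478_R+2_1ss21GA: ccgacctTAGCTCAGTTGgtaga
Its normalized reads were 502 (PHBA 0), 2283 (PHBA 2) and 2163 (PHBA 4). Both doses were thus far above the untreated library, and the 2 doses were close to each other, at a ratio of 0.947 in PHBA 4 over PHBA 2 (0.883 to 1.02) that is 1.16 with equal totals.

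The 3 numbers that resemble rRNA were all higher in sum at both doses than in PHBA 0, with miR2916 the most abundant of them. Its strands are shown with bases 2 to 8, the seed position of a miRNA, in capitals.
peu-MIR2916-p5_1ss5AG: tACCGTCCtagtctcaacc
peu-MIR2916-p3_1ss14CT: gCGGATGTtgcttttagga
peu-MIR2916-p5_1ss5AG stood at 298 (PHBA 0), 1413 (PHBA 2) and 2817 (PHBA 4). It was 4.75-fold higher in PHBA 2 than in PHBA 0 (4.29 to 5.26) and 9.47-fold higher in PHBA 4 than in PHBA 0 (8.63 to 10.4). peu-MIR2916-p3_1ss14CT stood at 45.4, 110 and 378, which was 2.42-fold higher in PHBA 2 (1.78 to 3.29) and 8.33-fold higher in PHBA 4 (6.53 to 10.7) than in PHBA 0. Both strands have 19 nt and step up with each dose.

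miR6173 had 6 sequences, the scarcest number of the set, with a read count of 25 (PHBA 0), 119 (PHBA 2) and 185 (PHBA 4). Of the 6, 4 were listed at 0 in PHBA 0. hbr-MIR6173-p3_1ss2CT, its most abundant sequence, stood at 7.98, 46.5 and 64.5, 5.84-fold higher in PHBA 2 (3.16 to 11.3) and 8.09-fold higher in PHBA 4 (4.46 to 15.4) than in PHBA 0. hbr-MIR6173-p5 had 0 in PHBA 0, then 40.7 in PHBA 2 and 60.7 in PHBA 4. hbr-MIR6173-p3 was at 0 up to the lower dose and had 43.5 in PHBA 4. hbr-MIR6173-p5_2ss16CG17AG was the exception to the order, with 0 (PHBA 0), 28.4 (PHBA 2) and 12.0 (PHBA 4). The remaining sequences were hbr-MIR6173-p5_1ss13AG, at 4.49, 19.4 and 52.5, and hbr-MIR6173-p3_2ss18AG19GC, at 0, 18.7 and 44.2. hbr-MIR6173-p5 and hbr-MIR6173-p3_2ss18AG19GC, printed above, share 17 bases although they are named as opposite arms.

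miR5368 rose least of the 3. Its 5 sequences summed to 254 (PHBA 0), 476 (PHBA 2) and 860 (PHBA 4), 1.88-fold higher in PHBA 2 (1.64 to 2.15) and 3.39-fold higher in PHBA 4 (3.01 to 3.83) than in PHBA 0. gma-MIR5368-p3_1ss16CT, with most of these reads, stood at 158, 326 and 659, and gma-MIR5368-p5_2ss2AT19CA at 47.6, 78.2 and 106. gma-MIR5368-p3_1ss6TC, of the same length, stood at 37.4, 62.1 and 47.2, with a ratio of PHBA 4 over PHBA 2 of 0.761 whose interval of 0.478 to 1.23 holds 1. The remaining pair, gma-MIR5368-p5_1ss9AG of 18 nt and gma-MIR5368-p5_1ss10AG of 19 nt, end alike and start 1 base apart. They stood at 5.98, 6.47 and 33.0 and at 5.23, 3.23 and 15.0 over the doses, highest in PHBA 4.

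miR3630, which in grapevine is an annotated miRNA, had 4 sequences of 20 and 21 nt. Summed they stood at 224 in PHBA 0, 487 in PHBA 2 and 1732 in PHBA 4, so most of the difference lay between PHBA 4 and PHBA 2. In PHBA 4 the sum was 3.56-fold higher than in PHBA 2 (3.16 to 4.00) and 7.73-fold higher than in PHBA 0 (6.92 to 8.63), and in PHBA 2 it was 2.17-fold higher than in PHBA 0 (1.89 to 2.50). vvi-miR3630-3p_L-1_2ss2TA22CT stood at 132, 242 and 936, and vvi-miR3630-3p_L-2 at 73.5, 170 and 646. vvi-MIR3630-p5_1ss1TA, at 18.7, 64.0 and 133, is named as the 5′ arm but contains all 20 bases of vvi-miR3630-3p_L-2, named as the 3′ arm. The other strand, vvi-MIR3630-p3_2ss16AC17CA, had 0 in PHBA 0, 10.99 in PHBA 2 and 16.5 in PHBA 4.

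**Figure D3:**
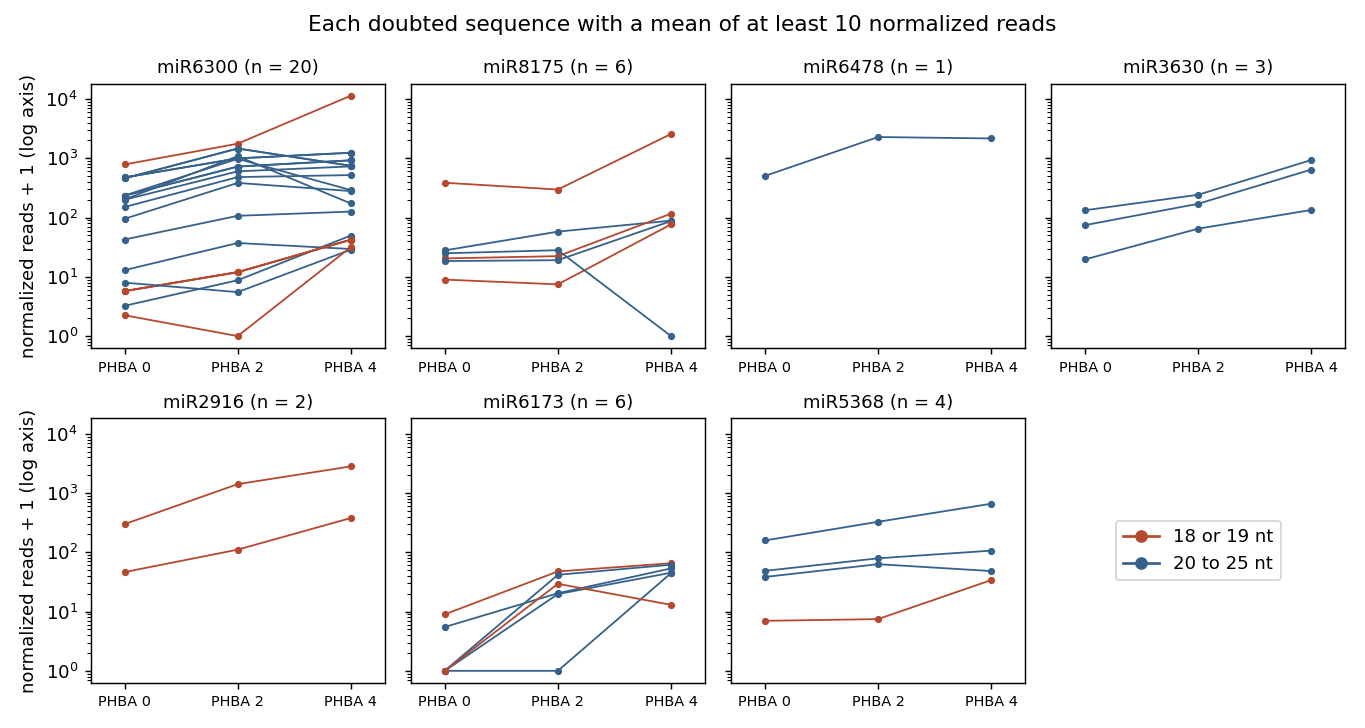
Normalized reads plus 1 (vertical axis, log scale) of each of the 42 doubted sequences whose mean reached 10, in PHBA 0, PHBA 2 and PHBA 4 (horizontal axis), with a panel for each miRNA number. Each line is 1 sequence, red for 18 or 19 nt and blue for 20 to 25 nt, and sequences with identical values overlie each other. The line of gma-miR6300 ends at 11407 in PHBA 4, and several blue lines of miR6300 have their highest point in PHBA 2.

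Counts of members that differ were made among sequences whose normalized reads averaged 10 or more over the 3 libraries, a minimum passed by 42 of the 57 members and by 289 sequences of the table. A sequence counts as higher or lower when the log2 of the ratio of normalized reads plus 1 is at least 1 in size, a 2-fold difference. Because members with high values in 1 library pass more easily, these counts are no evidence for the members that did not pass. The minimum can also raise the count of higher members among those that passed. Members below 10 in PHBA 0, among them all 6 of miR6173, passed only through a dosed library. The counts are thus descriptions and no test. Of the 42, 6 were listed at 0 in at least 1 library. The 42 carry 37 distinct sets of values, because some miR6300 lengths repeat theirs, and the counts below include each repeat. With shared values counted once, 25 of 37 were at least 2-fold higher in PHBA 2 than in PHBA 0. The same count was 32 of 37 in PHBA 4 against PHBA 0 and 18 of 37 in PHBA 4 against PHBA 2. These counts have no matching share over all sequences, since the shares below include repeated values.

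At the lower dose, 30 of 42 members exceeded PHBA 0 at least 2-fold in PHBA 2 and 1 was lower, while over all 289 sequences 16.3% were higher and 9.69% lower. The higher members were 18 of 20 for miR6300, 5 of 6 for miR6173, 2 of 3 for miR3630, 2 of 2 for miR2916, 1 of 6 for miR8175, 1 of 4 for miR5368 and the sequence of miR6478. The count for miR6173 is favoured by the minimum, which its members passed only through dosed libraries. The median log2 difference was 1.23 over the members and -0.03 over all sequences. The 1 lower member was gma-miR6300_L+1, at 1.25 in PHBA 0, which is 2.50 reads, and listed at 0 in PHBA 2. The largest difference up was that of hbr-MIR6173-p5, which is listed at 0 in PHBA 0, so its rank rests on the pseudocount added to each value.

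At the higher dose, 36 of 42 members exceeded PHBA 0 at least 2-fold in PHBA 4 and 1 was lower, while over all sequences 23.9% were higher and 21.1% lower. The higher members were 16 of 20 for miR6300, 5 of 6 for miR8175, 3 of 4 for miR5368 and every compared member of miR6173 (6), miR3630 (3), miR2916 (2) and miR6478 (1). No miR6173 sequence exceeded 7.98 in PHBA 0, so the minimum favoured its count here too. The median was 2.26 over the members and 0.01 over all sequences. The lower member was ath-miR8175_L+2_1ss4AT, listed at 0 in PHBA 4, and the largest difference up was again that of hbr-MIR6173-p5. Scaling the libraries to equal totals moves log2 values by 0.32 upward here and by 0.30 upward in PHBA 4 against PHBA 2.

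In PHBA 4 against PHBA 2 the members parted, with 20 of 42 at least 2-fold higher and 4 lower, and 18 between these limits. Over all sequences 17.3% were higher and 16.3% lower. The lower ones were gma-miR6300_R+4, gma-MIR6300-p5_1ss17AG, ath-miR8175_L+2_1ss4AT and hbr-MIR6173-p5_2ss16CG17AG, with the third of them, at 0 in PHBA 4, the farthest down. The largest difference up was that of hbr-MIR6173-p3, which is listed at 0 in PHBA 2 and passed the minimum only through PHBA 4, so its rank rests on the pseudocount. The median was 0.81 over the members and 0.03 over all sequences. Of the 42 members, 27 stepped up from PHBA 0 to PHBA 2 and again to PHBA 4, as did 72 of the 289 sequences (24.9%). The highest library was PHBA 0 for 0 members, PHBA 2 for 10 (23.81%) and PHBA 4 for 32 (76.19%), where over all 289 sequences the shares were 36.68%, 21.45% and 41.87%. The share of members that peaked in PHBA 2 is thus near that over all sequences. Of those 10, 7 had 22 to 24 nt, a length that 12 of the 42 members have. The 7 include the miR6300 forms of 24 nt, which have identical values and are counted separately. No matching share is given for other sequences of 22 to 24 nt. Whether this length goes with a peak in PHBA 2 was thus not tested.

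Length set the doubted sequences apart from each other at the higher dose more than at the lower. The sum of members under 20 nt was 1590 in PHBA 0, 3736 in PHBA 2 and 17685 in PHBA 4, and that of members of 20 nt or more was 4316, 13502 and 13159. The longer members were thus 3.13-fold higher in PHBA 2 (3.04 to 3.22) and 3.05-fold higher in PHBA 4 (2.96 to 3.14) than in PHBA 0, with a ratio of 0.975 between the doses (0.947 to 1.00) that becomes 1.20 with equal totals. The shorter members were 2.35-fold higher in PHBA 2 (2.23 to 2.47) and 11.1-fold higher in PHBA 4 (10.7 to 11.6) than in PHBA 0. Much of this sum is 1 sequence, gma-miR6300, with 785 in PHBA 0, 1762 in PHBA 2 and 11407 in PHBA 4. Of member reads, those under 20 nt made up 26.9% (PHBA 0), 21.7% (PHBA 2) and 57.3% (PHBA 4).

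The other short sequences of the table were also higher at the higher dose. The 38 sequences under 20 nt that are not members had a sum of 760 (PHBA 0), 965 (PHBA 2) and 2871 (PHBA 4), 3.78-fold higher in PHBA 4 than in PHBA 0 (3.53 to 4.04) and 1.27-fold higher in PHBA 2 than in PHBA 0 (1.16 to 1.39). Among those past the minimum, 13 of 16 were at least 2-fold higher in PHBA 4 than in PHBA 0, as were 13 of 13 members under 20 nt. Of the 16, PC-5p-25263_273 differed most upward, at a log2 of 7.32 with a mean of 213. The sum of 2871 in PHBA 4 thus rests partly on that sequence. For sequences of 20 nt or more the counts were 23 of 29 members and 20 of 231 others. In PHBA 2 against PHBA 0 they were 22 of 29 and 12 of 231. PHBA 4 is also the library with the fewest reads, and the part of depth, RNA quality or size selection in these differences was not tested.

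**Figure D4:**
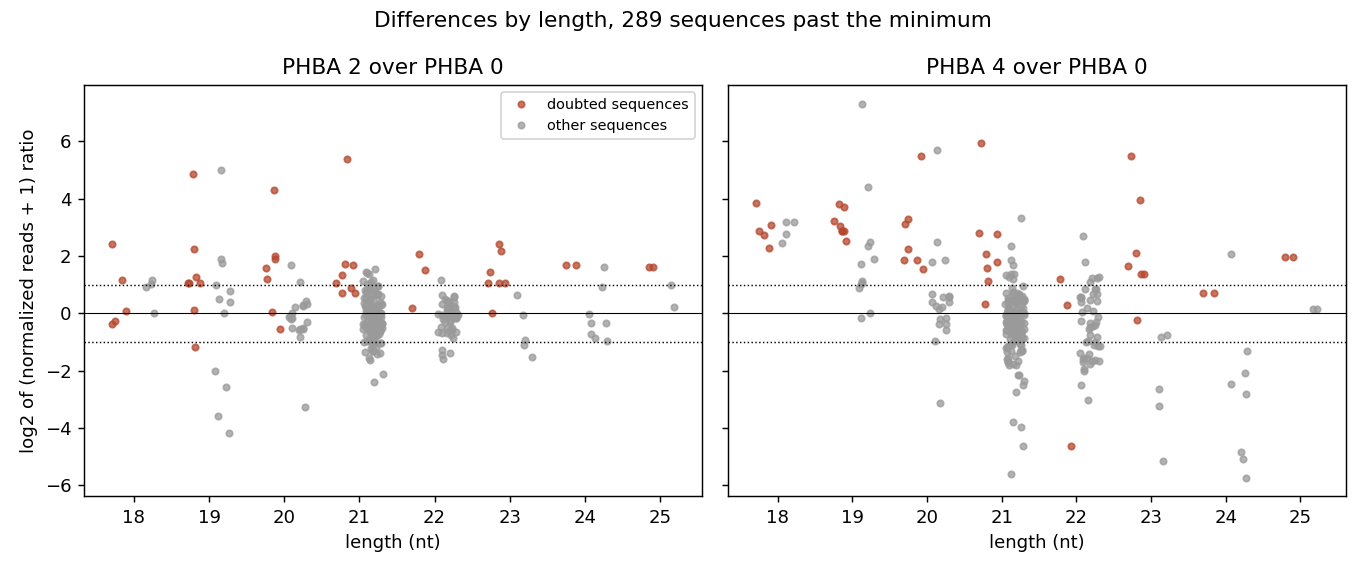
Log2 ratio of normalized reads plus 1 (vertical axis) against length in nt (horizontal axis) for the 289 sequences past the minimum, in PHBA 2 over PHBA 0 and in PHBA 4 over PHBA 0. Each point is a sequence, red for the 42 doubted ones and grey for the 247 others, and dotted lines mark 2-fold. All 13 red points under 20 nt lie above the upper line in PHBA 4 over PHBA 0, as do 13 of the 16 grey ones.

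Because the names rest on likeness to a registered sequence, the choice by number already fixes much of what the members share in letters. The shares of overlaps, ends, motif and seeds are given as a description. Joined where one sequence holds another or their ends match over at least 12 bases, 42 of the 57 members fall into 6 groups. The largest has 23 sequences, 22 of miR6300 and 1 of miR8175, and the next has 11 of miR8175. No member overlapped a sequence outside the set by this rule. Members ended in CCA in 8 of 57 cases (14.04%), all of them miR8175, against 10 of 415 other sequences (2.41%). The A box was searched by its fixed letters T, G, A and G, with 1, 3 and 3 free bases between them. It was found in 21 of 57 members (36.8%) and in 20 of 415 others (4.82%). On the opposite strand it was found in 0 of 57 and in 25 of 415 (6.02%). Of the 21 members, 19 were miR6300 sequences that overlap each other, so these are not separate observations. The other 2 were ptc-miR6478_R+2_1ss21GA and hbr-MIR6173-p3_1ss2CT. The last belongs to a number likened above to rRNA, so a match to these letters does not mark a tRNA. The first base was T (U in RNA), which is usual in plant miRNAs, in 13 of 57 members (22.8%) and in 198 of 415 others (47.7%).

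Shared seeds followed the ladder. Of the 57 members 15 had the seed tcgttgt at bases 2 to 8, all of them miR6300, and 3 of miR8175 had tccccgg. The 57 members had 35 different seeds in all. Arm names did not separate the hairpin strands. Of the 6 member numbers listed with both a 5′ and a 3′ arm, 4 had sequences under opposite arms that overlap by at least 12 bases or are identical, and of 39 other numbers 14 did. From a further list of doubted annotations (miR894, miR5139, miR8155, miR1511, miR5079, miR5813 and miR6149) 2 sequences were listed, both of miR1511, with a summed value of 4.49 in PHBA 0, 4.53 in PHBA 2 and 40.5 in PHBA 4.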

How the data were processed

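Libraries were made from total root RNA by Illumina's standard protocols, as the labels' protocols state. The submitters' processing notes name bcl2fastq 1.8.4. The aligner, counting rule, database release and genome build: not given in the sources used here. The deposited table lists 673 entries, each with an expected count that need not be whole and a normalized signal. In that signal the authors' count is multiplied by a constant of 0.498 (PHBA 0), 1.29 (PHBA 2) or 1.50 (PHBA 4). No per-sample column was left unused.

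Members were found by the number in the name, and each sequence was used once with the deposited normalized signal. A sequence was compared when its mean was at least 10. Folds are ratios without a pseudocount, and counts of 2-fold differences use a pseudocount of 1. Ratio intervals are exact conditional binomial (Clopper-Pearson) computed on summed counts after rounding. For shares the Wilson method was used, also at 95%. The interval code was tested on simulated data. Python 3.11.15, scipy 1.17.1 and pandas 2.3.3 were used.

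The members, lists and rules were chosen with earlier results of these data known. Named were the most abundant sequence of each number, each with a mean of at least 100, the largest difference in each direction, and sets that share values. Sequences named for their place on a stretch, their ends, or among 5 or fewer in a count were chosen after their values were seen. Alternatives were equal totals, median-of-ratios factors, no minimum, a minimum of 100, a pseudocount of 5, shared values once, every entry, and the set without gma-miR6300. The set without sequences under 20 nt was added after seeing the data.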

Additional observations from a re-analysis of the deposited data

How the results depend on the processing

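No paired analysis was possible because each dose is 1 library. The number of members at least 2-fold higher was lower with a minimum mean of 100, which leaves 19 members. It was then 17 for PHBA 2 over PHBA 0, 15 for PHBA 4 over PHBA 0 and 6 for PHBA 4 over PHBA 2. Without members under 20 nt, which leaves 29, it was 23 for PHBA 4 over PHBA 0 and 10 for PHBA 4 over PHBA 2. Both settings compare fewer members, so a lower number need not be a lower share. The number at least 2-fold lower is small and moved in PHBA 2 against PHBA 0 to 2 with equal totals, 5 with no minimum and 0 with a minimum of 100, with a pseudocount of 5 or without short members. In PHBA 4 against PHBA 0 it was 2 with no minimum and 0 at 100, and in PHBA 4 against PHBA 2 it was 9 and 2. The summed ratio of PHBA 2 over PHBA 0, 2.92 as reported, was 2.68 with every entry, 3.02 without gma-miR6300 and 3.13 without short members. That of PHBA 4 over PHBA 0, 5.22, was 6.54 with equal totals, 5.07 with median of ratios, 5.89 with shared values once, 5.59 with every entry, 3.80 without gma-miR6300 and 3.05 without short members. That of PHBA 4 over PHBA 2, 1.79, was 2.20, 1.73, 1.99, 2.08 and 1.26 in the same order, and it turned to 0.975 without short members. miR6478 turned from 0.947 to 1.16 with equal totals in PHBA 4 over PHBA 2. The other 37 values recomputed for the set stayed within 1.5 times the reported count or inside the interval of the reported ratio. Of the other summed ratios of single numbers, equal totals kept 9 inside their interval and moved 11 outside it, all 11 upward. The sums of miR6173 rest on the fewest reads of the 7 numbers in each library.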
